A study of Mus musculus with 20 samples.

Results

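The ErbB growth factor system was followed through 10 genes, namely the ligands Egf, Tgfa, Hbegf, Areg, Btc and Ereg, the receptors Egfr, Erbb2 and Erbb3, and Errfi1, which encodes an inhibitor of the EGF receptor kinase. The genes were taken by name and were 10 of the 27827 gene names on the array, read by 23 of 41174 probes. RNA from kidneys of male C57BL/6 mice aged 8 to 12 weeks was hybridized in 1 color to Agilent arrays, with 4 mice labeled as separate replicates in each of 5 groups. Control mice had no surgery or treatment. In the IRI (ischemia-reperfusion injury) group the pedicles of both kidneys were clamped for 45 min and the kidneys were taken after 6 h of reperfusion. IRI+Hemin mice received Hemin, an inducer of heme oxygenase 1, intraperitoneally at 25 mg/kg 24 h before the same surgery, Hemin mice received that dose without surgery, and IPC+IRI mice had an ischemic preconditioning (IPC) of 15 min, 7 days before IRI. No group was sham-operated, so a difference between an ischemic group and Control also holds the anesthesia and the incision.

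ErbB ligands are made as membrane-anchored precursors, and metalloproteases of the ADAM family cut them free. A bound ligand joins receptors in pairs and switches on their kinases, from which the signal passes through adaptors such as Shc and Grb2 to the Ras-ERK cascade and to PI3 kinase and Akt. Egfr binds all 6 ligands, Erbb2 has no known soluble ligand and acts as a partner, and Erbb3 binds neuregulins and has little kinase activity of its own. In the kidney Egf is made mainly by the thick ascending limb and the distal convoluted tubule and is shed into urine, and EGF receptor signaling takes part in the regrowth of the tubule after acute injury.

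A level below is a log2 expression value, the log2 of the gene's mean signal over its probes divided by the 75th percentile of the array, so that 0 is that percentile; levels of different genes were not compared, because probes differ in efficiency. A gene was called where its adjusted p in limma was below 0.05. The 75th percentile lay between 150 and 371 intensity units, and 57.4 to 67.4% of genes were well above background per array. The 4 arrays of a group shared 1 slide that held no other group, and the effects of slide and group therefore cannot be told apart. By their scan dates, Control and IRI were scanned on the same day, IPC+IRI and Hemin on another day, and IRI+Hemin alone on a further day. A scan below means such a day, so only IRI vs Control and IPC+IRI vs Hemin compare groups of 1 scan. The groups of 1 scan were still on separate slides. Without scaling between arrays the median difference of all genes moved by 0.14 in IRI vs Control, by -0.11 in IPC+IRI vs Hemin and by 0.32 to 0.57 in the 5 other pairs, all of which cross scans, and in those 5 the called genes that were higher went from between 39.7 and 59.2% to between 75.2 and 94.7% of calls. Scaling divides each array by its own 75th percentile. A difference relative to the median of all genes is therefore the same with and without scaling by construction. Such values below describe a gene and are no check of a call. With the percentile taken only over probes well above background on all arrays, 35.1% instead of 50.9% of the calls in Hemin vs Control and 84.8% instead of 74.6% in the interaction were higher. The markers of the proximal tubule, the thick ascending limb and the distal convoluted tubule were well above background on all 20 arrays. Hmox1, which encodes heme oxygenase 1, had a mean level of 1.34 ± 0.52 (SD, n = 4) in Control, 1.90 ± 0.21 in Hemin, 5.98 ± 0.47 in IRI, 5.75 ± 0.69 in IRI+Hemin and 3.91 ± 1.22 in IPC+IRI.

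In IRI vs Control, 5 of the 10 genes rose (Hbegf, Areg, Btc, Egfr and Errfi1) where 16.4% of all 17711 genes tested were called higher, and 2 fell (Erbb2 and Ereg) where 35% were called lower. Their median difference was 0.53 on the log2 scale against -0.19 for all genes tested. In IPC+IRI vs Control 3 genes rose (Hbegf, Egfr and Errfi1) beside 22.2% of all genes and 4 fell (Egf, Tgfa, Btc and Erbb2) beside 33.7%. In IRI+Hemin vs Control 4 rose (Hbegf, Areg, Egfr and Errfi1) beside 23.3% and 3 fell (Egf, Tgfa and Erbb2) beside 34.6%. Hbegf, Egfr, Errfi1 and Erbb2 were thus called in the same direction in all 3 ischemic groups. Hemin vs Control had 0 genes higher by limma beside 18.3% of all genes and 3 lower (Egf, Tgfa and Errfi1) beside 17.6%, and those 3 were the only ones of the 9 tested with an unadjusted p below 0.05. A test gene by gene, without the spread that limma pools over genes, called Egf and Tgfa lower, Egfr higher and not Errfi1. The arrays of the 2 groups did not overlap for 7 of the 10 genes tested in IRI vs Control and in IRI+Hemin vs Control, beside 46.6 and 47.6% of all genes tested, for 6 of 9 in IPC+IRI vs Control, beside 45.3%, and for 3 of 9 in Hemin vs Control, beside 37.7%. Areg was not tested in the last 2, and its calls in the first 2 rest on Control readings that were not well above background. These 4 comparisons share the Control arrays.

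**Figure D1:**
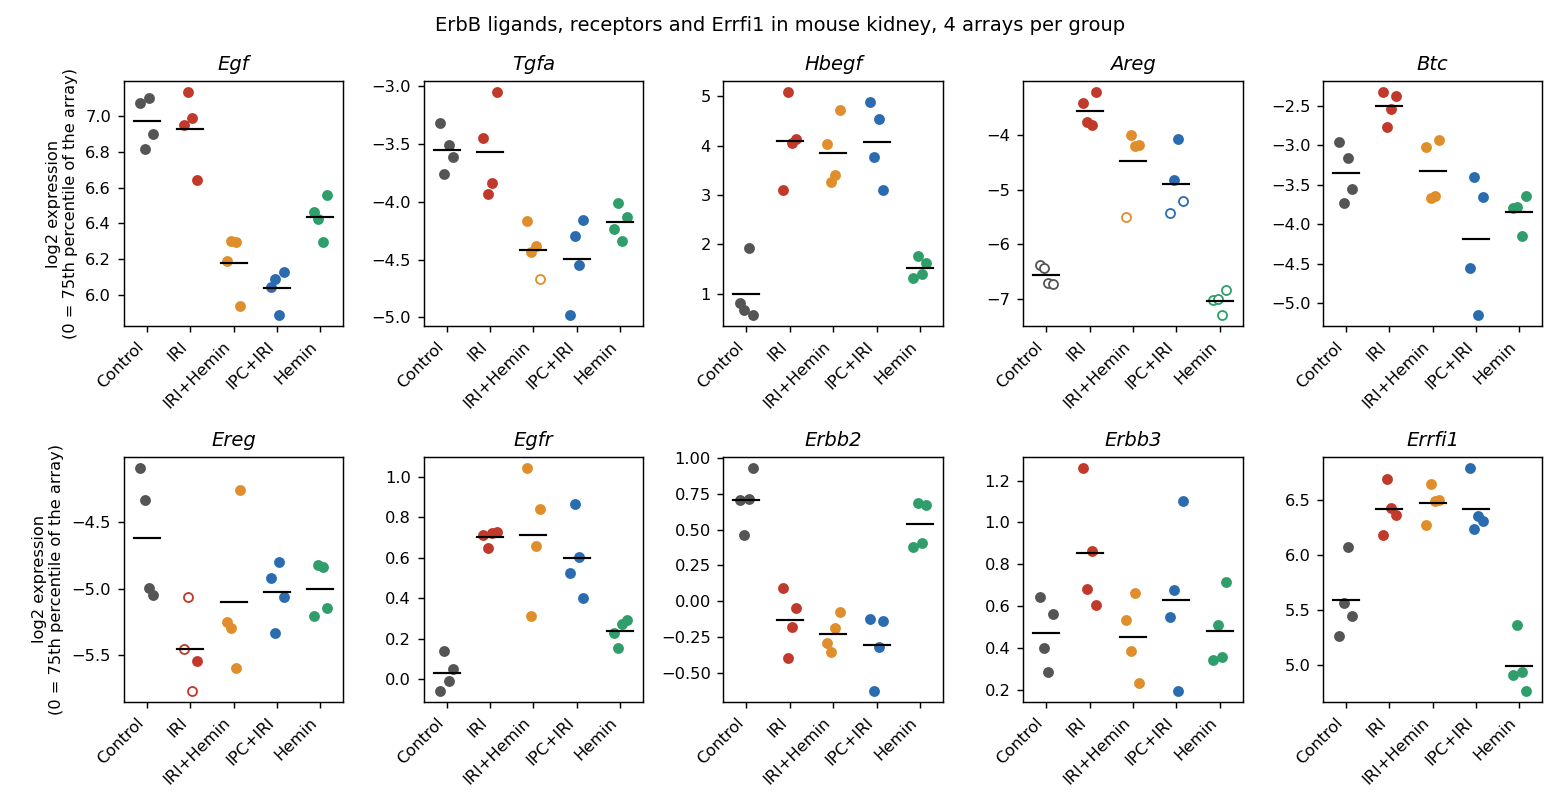
Log2 expression (vertical axes, 0 is the 75th percentile of the array) of the 10 genes on each array of the 5 groups; filled points were well above background, open points were not, and the bar is the mean of 4 arrays. Hbegf lies above 3 on every array of the 3 ischemic groups and below 2 on every other array, whereas Egf lies below 6.6 on every IRI+Hemin, IPC+IRI and Hemin array and above that on every Control and IRI array.

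Hbegf encodes heparin-binding EGF-like growth factor, a ligand of Egfr and of Erbb4, and its transcript had the largest difference from Control, in all 3 ischemic groups, of the genes that were measured in both groups. Its level was 0.82, 0.68, 1.92 and 0.57 on the Control arrays and 1.32, 1.76, 1.40 and 1.62 on the Hemin arrays. It was 3.11, 5.08, 4.04 and 4.12 in IRI, 4.03, 3.25, 3.40 and 4.72 in IRI+Hemin and 4.87, 3.78, 4.53 and 3.1 in IPC+IRI. The ischemic arrays did not overlap with the others, and spread over about 2 log2 units among themselves. The difference from Control was 3.09 (SE 0.43, 8.54-fold, adjusted p in limma 1.39e-05) in IRI, 3.07 (SE 0.43, 8.42-fold) in IPC+IRI and 2.86 (SE 0.43, 7.24-fold) in IRI+Hemin. Against IRI the difference was -0.02 (95% interval -0.92 to 0.88) in IPC+IRI and -0.24 (-1.14 to 0.66) in IRI+Hemin. Hemin alone differed from Control by 0.53 (-0.37 to 1.43).

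Areg encodes amphiregulin, a ligand of Egfr alone, and went from not well above background in Control to well above it in IRI. It was not well above background on any Control array, where the probe read -6.38, -6.44, -6.70 and -6.73, nor on any Hemin array, where it read -7.02, -7.01, -7.30 and -6.84. In IRI it was well above background on all 4 arrays, at -3.40, -3.76, -3.81 and -3.20. IRI+Hemin gave -4.00, -4.19 and -4.18 on 3 arrays and -5.50, not well above background, on the other, and IPC+IRI gave -4.83 and -4.07 on 2 arrays and -5.43 and -5.20 on the 2 that were not. Every ischemic array read above every Control and Hemin array.

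Because Control gives only an upper bound, the rise of Areg in IRI vs Control was at least 2.19-fold, counted from the lowest signal that was still well above background. In IRI+Hemin vs Control, with 3 of 4 arrays well above background, it was at least 1.16-fold. The adjusted p in limma, 3.25e-07 and 1.31e-05, belong to the differences of 3.02 and 2.10 from the Control readings and do not test these bounds. Areg was tested there only through the ischemic group. For IPC+IRI vs Control, with 2 of 4 arrays well above background, the same bound lay below 1 and showed no rise. With normexp background correction the differences in IRI and IRI+Hemin vs Control were 0.55 (adjusted p 0.0987) and -0.15 (adjusted p 0.588), and neither was called. Areg was lower in both pretreated groups than in IRI: by -1.34 (SE 0.29, adjusted p 0.00145) in IPC+IRI vs IRI, where 2 of the 4 IPC+IRI readings were not well above background, and by -0.92 (SE 0.29, adjusted p 0.0166) in IRI+Hemin vs IRI. The second call was lost without IRI replicate 4 or IRI+Hemin replicate 1, with adjusted p up to 0.0635. The summed level of 3 neutrophil markers, relative to the 75th percentile, was 0.281 to 0.616 in Control, 0.468 to 1.56 in Hemin, 2.35 to 7.80 in IRI, 2.09 to 8.97 in IRI+Hemin and 6.15 to 18.4 in IPC+IRI (2 of the 3 were called higher and 1 lower in IRI vs Control), and their part in the rise of Areg and Hbegf was not tested. In whole kidney, fewer cells of a type and less RNA per cell cannot be told apart.

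Promoter windows of 300 bases, 250 before and 50 after the start site, were read from RefSeq (GRCm38.p6) for 7 of the 10 genes, in 9 windows, with none for Hbegf, Ereg and Erbb3. They were searched on both strands for TGACGTCA, the cyclic AMP response element bound by CREB and ATF factors, and for TGACTCA and TGAGTCA, the site of AP-1. Areg and Errfi1, which both rose with ischemia, had 1 TGACGTCA each, at -61 and -51 from the start site, and no other of the 9 windows had one, those of Btc and Egfr, which also rose in IRI, included. Over all 32851 windows, 1.79% held it. AP-1 sites were in none of the 9 windows and in 5.2% of all. The shorter TGACG was in 4 of the 9 windows (Errfi1, Areg, Btc and Erbb2) and 20.8% of all, and ACGTG or GCGTG, the core of the hypoxia response element, in 5 of the 9 (Egf, Errfi1, Btc, Tgfa and Erbb2) and 43.8% of all. A match is a description of the letters and shows no binding. Both windows are printed on the strand of the gene, with the element in capitals.
Areg, chr5:91139349-91139648, plus strand: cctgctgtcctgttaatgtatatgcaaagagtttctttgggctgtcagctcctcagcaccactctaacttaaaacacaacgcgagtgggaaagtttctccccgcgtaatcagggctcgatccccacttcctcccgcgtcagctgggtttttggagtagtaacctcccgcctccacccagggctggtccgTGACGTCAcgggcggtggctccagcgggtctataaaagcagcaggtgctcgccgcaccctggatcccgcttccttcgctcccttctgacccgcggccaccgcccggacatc
Errfi1, chr4:150854820-150855119, plus strand: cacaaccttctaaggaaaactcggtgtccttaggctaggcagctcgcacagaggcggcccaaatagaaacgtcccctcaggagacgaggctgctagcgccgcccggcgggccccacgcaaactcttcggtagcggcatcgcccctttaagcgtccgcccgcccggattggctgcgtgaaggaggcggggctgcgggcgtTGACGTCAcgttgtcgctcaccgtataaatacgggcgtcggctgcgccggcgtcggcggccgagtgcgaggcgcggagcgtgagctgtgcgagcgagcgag

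Btc encodes betacellulin, a ligand of Egfr and Erbb4. Its levels were -2.96, -3.74, -3.16 and -3.55 in Control and -2.33, -2.77, -2.55 and -2.37 in IRI. They were -3.03, -3.67, -3.65 and -2.94 in IRI+Hemin, -4.56, -3.41, -5.15 and -3.66 in IPC+IRI and -3.80, -3.78, -4.16 and -3.65 in Hemin. IRI was the only group in which all 4 arrays were above all of the Control arrays, and IPC+IRI was the most spread. Btc rose in IRI vs Control by 0.85 (SE 0.30, adjusted p in limma 0.0241) and fell in IPC+IRI vs Control by 0.84 (SE 0.30, adjusted p 0.0230) although these groups overlapped. Each of these 2 calls was lost without any 1 of 4 arrays, with adjusted p up to 0.0739 without Control replicates 2 or 4 or IRI replicates 1 or 4, and up to 0.103 without Control replicates 1 or 3 or IPC+IRI replicates 1 or 3. In all, 6 of 21 alternatives ended the call in IRI vs Control, normexp background correction among them. The call in IPC+IRI vs Control ended in 10 of 21, among them no scaling (-0.38). The direct comparison had the larger difference, with IPC+IRI below IRI by -1.69 (SE 0.30, adjusted p 0.000257), and IRI+Hemin was below IRI by -0.82 (adjusted p 0.0337), a call that was lost without IRI replicate 1, 3 or 4 or IRI+Hemin replicate 2 or 3, with adjusted p up to 0.0928. Of the 2 Btc probes, 1 was well above background on 0 of 20 arrays, so the values rest mainly on the other.

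Egf itself did not follow the induced ligands. Its levels were 7.07, 6.82, 7.10 and 6.90 in Control and 6.95, 7.13, 6.99 and 6.64 in IRI, with a difference of -0.04 (95% interval -0.29 to 0.20). They were 6.19, 6.30, 6.29 and 5.93 in IRI+Hemin, 6.04, 6.09, 5.88 and 6.13 in IPC+IRI and 6.46, 6.42, 6.30 and 6.56 in Hemin. All 12 arrays of these 3 groups lay below all 8 arrays of Control and IRI. Egf fell against Control by 0.94 in IPC+IRI (SE 0.12, adjusted p in limma 4.90e-06), by 0.79 in IRI+Hemin (SE 0.12, adjusted p 2.22e-05) and by 0.54 in Hemin (SE 0.12, adjusted p 0.00218). Against IRI it fell by 0.89 in IPC+IRI (adjusted p 2.18e-05) and by 0.75 in IRI+Hemin (adjusted p 8.79e-05). Within the scan that IPC+IRI and Hemin share, IPC+IRI was lower by -0.40 (adjusted p 0.0127).

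The groups with higher Egf, Control and IRI, are also those of 1 scan, so that scan and treatment cannot be told apart in these differences. Without scaling between arrays no fall of Egf was called, at -0.48 in IPC+IRI, -0.28 in IRI+Hemin and 0.03 in Hemin against Control. Relative to the median of all genes these are -0.83, -0.66 and -0.59, by construction the same as with scaling. In IPC+IRI vs Hemin, within their scan, the difference was -0.51 without scaling and was not called either. Egf is among the brightest signals, and 106 genes lay within 0.5 log2 units of it. Their median difference was 0.14 in IPC+IRI vs Control, 0.12 in IRI+Hemin vs Control and 0.12 in Hemin vs Control, and 0, 3 and 5 of them fell further than Egf. The summed level of 5 thick ascending limb markers overlapped between all groups, at 226 to 293 in Control, 187 to 251 in IRI, 221 to 386 in IRI+Hemin, 216 to 330 in IPC+IRI and 245 to 292 in Hemin. That of 4 distal convoluted tubule markers was 38.8 to 67.9 in Control, 41.5 to 58.1 in IRI, 52.9 to 93.7 in IPC+IRI and 38.3 to 59.6 in Hemin, and 26.4 to 39.1 in IRI+Hemin, where 3 of the 4 markers were called lower than in Control.

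Tgfa, which encodes the ligand TGF-alpha, had the same order of groups as Egf. Its levels were -3.32, -3.76, -3.51 and -3.61 in Control and -3.45, -3.94, -3.83 and -3.05 in IRI. They were -4.17, -4.44, -4.38 and -4.67 in IRI+Hemin, -4.98, -4.30, -4.55 and -4.16 in IPC+IRI and -4.24, -4.01, -4.34 and -4.13 in Hemin. These 12 arrays again lay below the 8 arrays of Control and IRI. Tgfa fell against Control by 0.95 in IPC+IRI (SE 0.19, adjusted p in limma 0.000458), by 0.86 in IRI+Hemin (SE 0.19, adjusted p 0.000968) and by 0.63 in Hemin (SE 0.19, adjusted p 0.0170), and it differed by -0.02 (95% interval -0.42 to 0.39) in IRI. The call in Hemin was lost without Control replicate 1 (adjusted p 0.0541), and normexp background correction ended all 3 calls, at -0.42, -0.48 and -0.49. Without scaling they were -0.49, -0.35 and -0.06, which is -0.84, -0.73 and -0.68 relative to the median of all genes. Of the 2 Tgfa probes, A_51_P415126 was called lower in each of these 3 groups, and A_52_P555423, well above background on 14 of 20 arrays, in IPC+IRI vs Control (-0.83, adjusted p 0.0240) but not in IRI+Hemin vs Control (-0.66), Hemin vs Control (-0.57) or IRI+Hemin vs IRI (-0.63).

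Ereg, the gene of epiregulin, was near background, and its annotation is uncertain. Its levels were -4.09, -4.33, -5.00 and -5.05 in Control and -5.45, -5.07, -5.77 and -5.55 in IRI, where 1 of 4 arrays was well above background. IRI was below Control by -0.84 (SE 0.26, adjusted p in limma 0.0110), but the difference was 0.17 with normexp background correction (adjusted p 0.758) and -0.38 with quantile normalization (adjusted p 0.203), and neither was called. The probe to the Ereg transcript NM_007950 (mm9 chr5:91521659-91521720, plus strand) was well above background on 1 of 20 arrays. The values rest mainly on the second probe, to the cDNA clone AK019057, which was above it on 17 arrays and lies on the minus strand at mm9 chr5:91480914-91480973, away from the NM_007950 probe. On IRI+Hemin replicate 4, the array on which the NM_007950 probe was well above background, that probe read -3.83 and carried the gene level of -4.26. Alone, the AK019057 probe A_51_P157223 fell against Control in IRI by 1.01 (adjusted p 0.00184) and in IRI+Hemin by 0.82 (adjusted p 0.00717) and was higher in IPC+IRI vs IRI by 0.59 (adjusted p 0.0483), whereas the gene value was called in the first of these alone. The first 30 bases of both are shown because they read different transcripts under 1 gene name.
Ereg, NM_007950 probe: acacagatttcccattatattgtgtataca
Ereg, AK019057 probe: tgactttgtactggtcttccttagttcccc

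**Figure D2:**
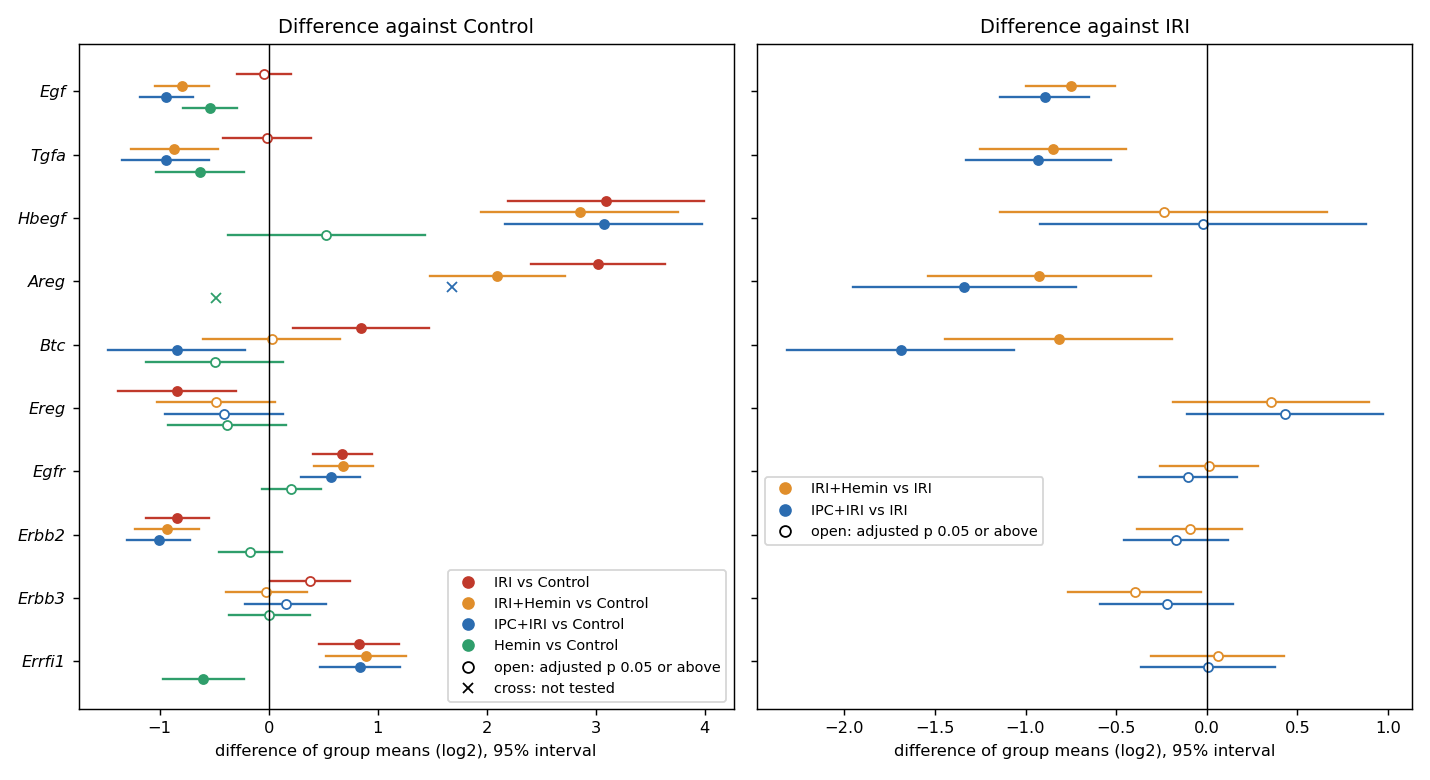
Difference of group means (log2, horizontal axis) with its 95% interval for the 10 genes, against Control on the left and against IRI on the right; filled points passed an adjusted p below 0.05, open points did not, and crosses were not tested. The gene values of Hbegf, Egfr, Errfi1 and Erbb2 moved alike against Control in the 3 ischemic groups, although the single probes of Egfr did not. Egf, Tgfa, Areg and Btc were below IRI in both pretreated groups.

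Egfr, the receptor of all 6 ligands, rose in each ischemic group. Its levels were -0.06, 0.14, -0.01 and 0.05 in Control, 0.71, 0.65, 0.72 and 0.73 in IRI and 0.23, 0.15, 0.27 and 0.29 in Hemin. IRI+Hemin gave 1.05, 0.31, 0.66 and 0.84, and IPC+IRI gave 0.53, 0.87, 0.61 and 0.40. Control, Hemin and the ischemic groups did not overlap. Egfr rose against Control by 0.67 in IRI (SE 0.13, 1.60-fold, adjusted p in limma 0.000308), by 0.68 in IRI+Hemin (SE 0.13, adjusted p 0.000233) and by 0.57 in IPC+IRI (SE 0.13, adjusted p 0.00114). Hemin vs Control was 0.21 (95% interval -0.06 to 0.48, adjusted p 0.222). In the scan shared by IPC+IRI and Hemin the difference was 0.36 (adjusted p 0.0346), a call that was lost without IPC+IRI replicate 2 or 3 or any 1 of the 4 Hemin arrays, with adjusted p up to 0.125.

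The 6 Egfr probes did not move together. Of the 2 probes to the Egfr transcript NM_207655, which lie toward the 3′ end of the gene, A_52_P106259 rose against Control in each group, by 0.89 in IRI, by 1.26 after IPC, by 1.23 with Hemin before IRI and by 0.71 with Hemin alone, all called in a fit over all probes. The other, A_52_P674338, rose by 1.45 in IRI (adjusted p 2.75e-05), was not called in IRI+Hemin (0.36) or IPC+IRI (0.33), and fell by 0.75 in Hemin (adjusted p 0.0112). The other 2 RefSeq probes are to the transcript NM_007912. A_51_P392242 rose by 0.30 in IRI (adjusted p 0.0326) and 0.40 in IRI+Hemin (adjusted p 0.00567), with -0.25 in IPC+IRI and -0.03 in Hemin, and A_52_P56471 was called in none of the 4 comparisons, at 0.40, -0.02, -0.19 and -0.22.

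A probe to the cDNA clone AK033431 fell by 1.11 in IPC+IRI, 0.95 in IRI+Hemin and 0.89 in Hemin (adjusted p 0.000295, 0.00103 and 0.00409), with 0.20 in IRI, and the probe to the clone AK049452 was well above background on 3 of 20 arrays. Since the gene value is a mean of signals, the brightest probe weighs most in it. With the mean of log2 values over probes instead, Egfr differed from Control by 0.11 in IPC+IRI (adjusted p 0.502) and 0.26 in IRI+Hemin (adjusted p 0.109), and the calls were lost. The 5 Egfr probes that were tested start on mm9 chromosome 11, plus strand, at 16783545 (A_52_P56471), 16787385 (A_51_P392242), 16812181 (A_52_P674338), 16813815 (A_52_P106259) and 16817630 (AK033431), and the AK049452 probe starts upstream of them at 16655638. The first 30 bases of the 5 tested are shown because the probes give the gene different answers.
Egfr, A_52_P56471: caacactctggtctggaagtatgcagatgc
Egfr, A_51_P392242: caagaggttaacactacggactagccattc
Egfr, A_52_P674338: tggagcttatatttagggaactttgggatt
Egfr, A_52_P106259: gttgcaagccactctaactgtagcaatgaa
Egfr, AK033431 probe A_52_P175190: ttgatttggatacaaagtgttgttactgta

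**Figure D3:**
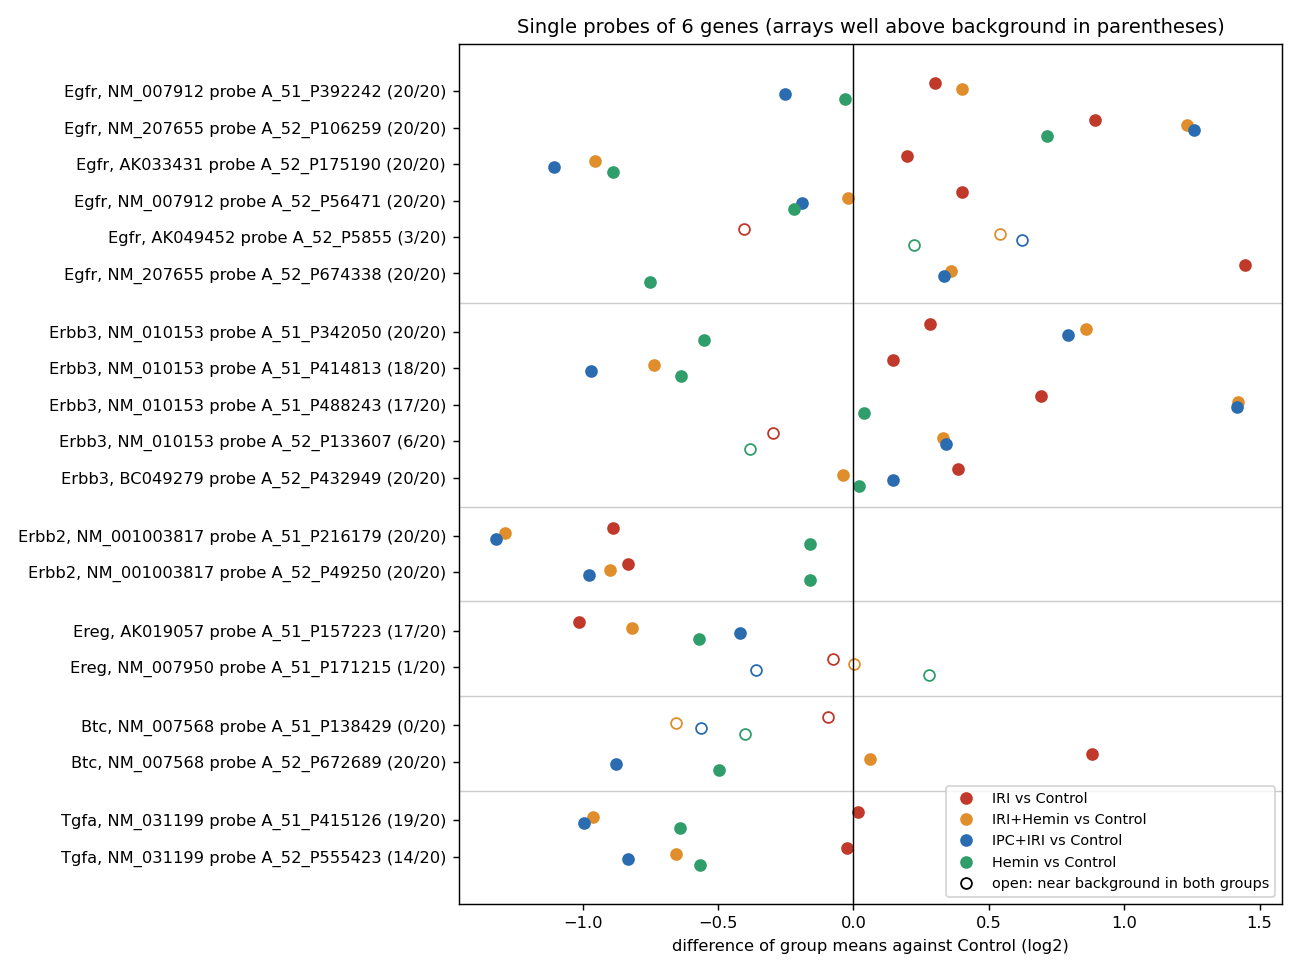
Difference of group means against Control (log2, horizontal axis) for the single probes of 6 genes, 1 line per probe with the number of arrays well above background; open points had fewer than 3 arrays well above background in both groups. Both Erbb2 probes lie left of 0 in every comparison, whereas probes of Egfr and Erbb3 lie on both sides.

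Erbb2, the receptor that serves as a partner, fell in the 3 ischemic groups. Its levels were 0.71, 0.47, 0.71 and 0.93 in Control and 0.38, 0.69, 0.41 and 0.67 in Hemin. They were 0.09, -0.39, -0.18 and -0.05 in IRI, -0.29, -0.35, -0.19 and -0.08 in IRI+Hemin and -0.13, -0.63, -0.32 and -0.14 in IPC+IRI, with no overlap with Control or Hemin. The fall from Control was 0.84 in IRI (SE 0.14, adjusted p in limma 7.46e-05), 0.93 in IRI+Hemin (SE 0.14, adjusted p 2.16e-05) and 1.01 in IPC+IRI (SE 0.14, adjusted p 1.15e-05), so that the level in IRI was 1.79-fold lower. Hemin differed from Control by -0.17 (95% interval -0.46 to 0.12). Within the other scan, IPC+IRI was below Hemin by -0.84 (adjusted p 0.000166).

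Both Erbb2 probes fell in all 3 ischemic groups, by 0.83 to 1.32. Without scaling the difference stayed called in IRI vs Control at -0.70, but not in IRI+Hemin at -0.42 (adjusted p 0.175) or IPC+IRI at -0.55 (adjusted p 0.0811), which is -0.80 and -0.90 relative to the median of all genes. The summed level of 6 proximal tubule markers was 401 to 442 in Control, 377 to 394 in Hemin, 287 to 406 in IRI, 253 to 361 in IRI+Hemin and 282 to 323 in IPC+IRI, with 2, 3 and 4 of the 6 markers called lower than Control in IRI, IRI+Hemin and IPC+IRI, and its part in the fall of Erbb2 was not tested.

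Erbb3, the neuregulin receptor, was called in no comparison. Its levels ran from 0.29 to 0.65 in Control, 0.61 to 1.26 in IRI, 0.23 to 0.66 in IRI+Hemin, 0.19 to 1.10 in IPC+IRI and 0.34 to 0.72 in Hemin. The largest difference from Control was 0.38 (95% interval 0.01 to 0.75, adjusted p in limma 0.0792) in IRI, and all groups overlapped with Control. This gene value rests on 1 bright probe to the cDNA clone BC049279, at mm9 chr10:128004749-128004808 on the minus strand. The probes to the Erbb3 transcript NM_010153 differed. A_51_P488243 rose by 1.42 in both IPC+IRI and IRI+Hemin (adjusted p 0.000926 and 0.000889), though its readings on Control replicates 1 and 2 were not well above background. A_51_P342050 rose by 0.79 and 0.86 (adjusted p 0.00699 and 0.00387), while A_51_P414813 fell by 0.97 and 0.74 (adjusted p 0.00682 and 0.0318). Without the clone probe the gene value of Erbb3 in IRI+Hemin vs Control was 0.47 (adjusted p 0.0352), a choice made after the probe values were seen, and with the mean of log2 values over all its probes it was 0.37, which also passed the threshold.

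Errfi1, also known as Mig6, is switched on by EGF receptor signaling and inhibits the receptor in turn. It rose in the 3 ischemic groups and fell in Hemin. Its levels were 5.26, 5.56, 6.08 and 5.44 in Control, 6.18, 6.69, 6.43 and 6.37 in IRI and 6.28, 6.65, 6.49 and 6.50 in IRI+Hemin. They were 6.79, 6.23, 6.36 and 6.30 in IPC+IRI and 4.90, 5.36, 4.93 and 4.76 in Hemin. All 12 ischemic arrays lay above all Control and Hemin arrays, and 1 Hemin array lay within the range of Control. The rise from Control was 0.83 in IRI (SE 0.18, 1.78-fold, adjusted p in limma 0.000725), 0.84 in IPC+IRI (SE 0.18, adjusted p 0.000613) and 0.89 in IRI+Hemin (SE 0.18, adjusted p 0.000342).

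Against IRI the difference of Errfi1 was 0.01 (95% interval -0.36 to 0.37) in IPC+IRI and 0.06 (-0.31 to 0.43) in IRI+Hemin. The fall in Hemin was 0.60 (adjusted p 0.0139), and it was lost without Control replicate 3 (adjusted p 0.0600), with normexp background correction (-0.45, adjusted p 0.130), in the test gene by gene and without scaling (-0.03, or -0.65 relative to the median of all genes). IPC+IRI was above Hemin within their scan by 1.44 (SE 0.18, 2.70-fold, adjusted p 9.82e-06).

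Between the pretreated groups and IRI, the question was which transcripts preconditioning or Hemin moved in a kidney that was then injured. In IPC+IRI vs IRI 0 of the 10 genes were higher beside 25.9% of all genes tested, and 4 fell beside 17.9%. In IRI+Hemin vs IRI 0 were higher beside 25.8% and 4 fell beside 18.3%. The 2 groups did not overlap for 4 of the 10 genes in each, beside 37.4 and 38.8% of all genes. The 4 that fell were the ligands Egf, Tgfa, Areg and Btc in both comparisons, which share the IRI arrays and both cross scans. Without scaling, Areg and Btc stayed called in IPC+IRI vs IRI and none of the 4 in IRI+Hemin vs IRI. The median of all genes then moved from 0.09 to 0.41 and from 0.08 to 0.45. Relative to it Egf, Tgfa, Areg and Btc lay at -0.98, -1.02, -1.43 and -1.78 in IPC+IRI and at -0.83, -0.92, -0.999 and -0.89 in IRI+Hemin. Scaling leaves these values the same by construction, so they do not bear on the lost calls. No other gene of the 10 reached an unadjusted p below 0.05 except Erbb3 in IRI+Hemin vs IRI, at -0.40 (adjusted p in limma 0.0730). The Erbb3 probes went both ways there: A_51_P342050 was called higher, by 0.58, and A_51_P414813 lower, by -0.88, the latter also in IPC+IRI vs IRI, by -1.11. A_52_P133607 was called higher in both, by 0.63 in IRI+Hemin vs IRI and by 0.64 in IPC+IRI vs IRI. It was well above background on no IRI array, so these 2 differences rest on background readings. Single Egfr probes differed from its gene value: in IPC+IRI vs IRI 4 of its 5 probes tested were lower, namely A_51_P392242 by -0.56, A_52_P56471 by -0.59, A_52_P674338 by -1.11 and the AK033431 probe A_52_P175190 by -1.30, and the last 2 were lower in IRI+Hemin vs IRI, by -1.09 and -1.15. The brightest, A_52_P106259, was not called in either (0.37 and 0.34). In IPC+IRI vs IRI, Ereg was called higher in the deposited log2 matrix and without scaling (0.73 and 0.75). Relative to the median of all genes it was 0.34, by construction the same with scaling and without.

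In IPC+IRI vs Hemin, a comparison added after the scan dates were seen because both groups share a date, 3 of the 10 genes rose (Hbegf, Egfr and Errfi1) beside 12.6% of all genes and 2 fell (Egf and Erbb2) beside 24.4%, and 5 of the 9 tested did not overlap beside 39.2%. Hbegf rose by 2.55 (SE 0.43, adjusted p in limma 0.000216). Areg was not tested there, since it was well above background on 2 IPC+IRI arrays and on no Hemin array. The interaction of Hemin and IRI, which asks if the difference with Hemin is another one in injured than in uninjured kidney, called 0 of the 10 genes by limma, beside 5.71% of all genes tested called higher and 1.95% called lower. Errfi1 alone had an unadjusted p below 0.05, at 0.66 (95% interval 0.13 to 1.18), and it did not pass the adjustment, and no alternative setting called any of the 10.

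The 6 other genes of the family were read where the array had them, and 5 of the 6 had a gene name (Nrg2 was not among the names). Nrg1, the gene of neuregulin 1, a ligand of Erbb3 and Erbb4, rose by 2.86 in IRI (adjusted p in limma 4.59e-09), 2.34 in IPC+IRI (adjusted p 5.63e-08) and 2.73 in IRI+Hemin (adjusted p 1.11e-08) against Control, with -0.31 in Hemin. Its 5 probes disagreed between the ischemic groups. The probe A_52_P328064, to the cDNA clone AK083943, was not called in IRI vs Control (0.89) and rose above IRI by 2.82 in IPC+IRI and 3.13 in IRI+Hemin, A_52_P158772, to the clone AK031289, was lower than in IRI by -1.36 and -0.89, and of the 3 probes to NM_178591 A_52_P369761 and A_52_P369769 were lower in IPC+IRI vs IRI, by -0.61 and -0.67, and none was called in IRI+Hemin vs IRI. The gene value of Nrg1 was lower in IPC+IRI vs IRI by -0.52 (adjusted p 0.0342) and was not called in IRI+Hemin vs IRI (-0.13). The first call was lost in 8 of 21 alternatives, among them without IRI replicate 3 or 4 or IPC+IRI replicate 1. Nrg4, another neuregulin, fell by 1.29 in IPC+IRI (adjusted p 0.000148) and 1.00 in IRI+Hemin (adjusted p 0.00132), with -0.12 in IRI and -0.31 in Hemin. It also fell against IRI, by 1.17 in IPC+IRI (adjusted p 0.000640) and 0.88 in IRI+Hemin (adjusted p 0.00523). Epgn, which encodes the ligand epigen, was lower in IRI vs Control by -1.08 (adjusted p 0.0216), a call that was lost without Control replicate 2 (-0.60) or IRI replicate 4, with adjusted p up to 0.0833. Epgn rose in IRI+Hemin vs IRI by 1.71 (adjusted p 0.00140), a call kept without any single array but lost in 1 of 21 alternatives (adjusted p 0.116). It was not called in IPC+IRI vs IRI (0.77). Erbb4 was near background. It was called higher in IRI+Hemin vs IRI (adjusted p 0.0178), but it was well above background on 3 IRI+Hemin arrays and no IRI array, at levels that allow no fold. Nrg3 was well above background on no array.

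Transcripts known to rise on ERK signaling, the cascade below the receptors, moved with ischemia. Of 18 tested, 15 rose and 2 fell in IRI vs Control, with a median of 2.49 against -0.19 for all genes tested, of which 16.4% rose and 35% fell. In IPC+IRI vs Control 14 rose and 1 fell (median 2.02 against -0.11) beside 22.2 and 33.7% of all genes, and in IRI+Hemin vs Control 13 rose and 2 fell (median 1.64 against -0.13) beside 23.3 and 34.6%. These genes also answer to other signals, so their rise does not single out the ErbB receptors. The list was chosen with earlier results of these data known, so the counts are a description and no independent test. Fosl1, a subunit of AP-1, rose by 6.53 in IRI (adjusted p in limma 1.92e-11), 5.10 in IPC+IRI and 5.38 in IRI+Hemin, differences that rest on Control readings of which 3 of 4 were not well above background. Cdkn1a, the cell cycle inhibitor p21, rose by 5.19, 4.61 and 4.64, and Plaur, the urokinase receptor, by 4.69, 3.40 and 3.61. Etv5, an ETS factor, went the other way and fell by 0.52 in IRI, 1.12 in IPC+IRI, 1.13 in IRI+Hemin and 0.82 in Hemin.

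Against IRI, 6 of these 18 fell and 1 rose in IPC+IRI (median -0.59 against 0.09), beside 17.9% of all genes that fell and 25.9% that rose, and 10 fell and 0 rose in IRI+Hemin (median -0.71 against 0.08), beside 18.3 and 25.8%. Myc, the growth regulator, fell by 2.30 in IPC+IRI vs IRI (adjusted p in limma 7.10e-06) and by 1.72 in IRI+Hemin vs IRI (adjusted p 6.12e-05). Phlda1 fell by 1.24 and 1.70 in the same comparisons. In Hemin vs Control 1 of 17 rose and 2 fell (median -0.13 against 0.06) beside 18.3 and 17.6% of all genes, Myc among the latter by 1.41. In IPC+IRI vs Hemin, within 1 scan, 14 of 18 rose and 1 fell, with a median of 2.33 against -0.17, beside 12.6 and 24.4% of all genes.

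**Figure D4:**
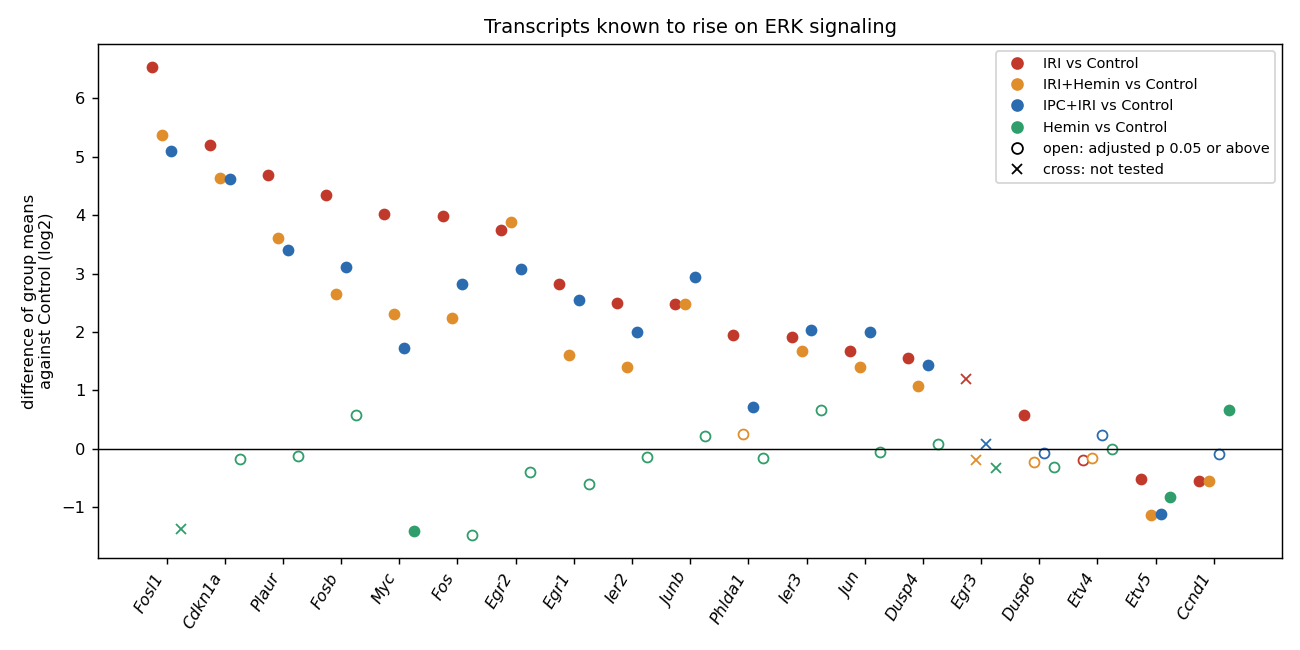
Difference of group means against Control (log2, vertical axis) for 19 transcripts known to rise on ERK signaling, in 4 comparisons with a color each; filled points passed an adjusted p below 0.05, open points did not, and crosses were not tested. Cdkn1a lies at 5.19, 4.64 and 4.61 in the 3 ischemic groups, Fosl1 is drawn from a Control with 1 of 4 arrays well above background, and the Hemin group stays near or below 0 for most of them.

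Genes that shed the ligands or regulate shedding in either direction were mixed. Of 10 tested, 4 rose and 1 fell in IRI vs Control, 3 rose and 3 fell in IPC+IRI vs Control, 3 rose and 2 fell in IRI+Hemin vs Control, and 2 rose and 1 fell in Hemin vs Control. Over all genes 16.4% rose and 35% fell in IRI vs Control, 22.2 and 33.7% in IPC+IRI vs Control, 23.3 and 34.6% in IRI+Hemin vs Control and 18.3 and 17.6% in Hemin vs Control, and with 10 genes most of these counts lie near those shares. Adam17, the main sheddase of Tgfa, Hbegf and Areg, fell by 0.53 in IRI (adjusted p in limma 0.000589), was not called in IPC+IRI (0.12) or IRI+Hemin (-0.06), and rose by 0.37 in Hemin (adjusted p 0.0131). Rhbdf2, the iRhom that brings Adam17 to the cell surface, rose by 2.02 in IRI (adjusted p 0.000313) and 1.78 in IPC+IRI (adjusted p 0.000851) and was not called in IRI+Hemin (0.75), and Adam8 by 2.40 in IRI, 2.87 in IPC+IRI and 1.16 in IRI+Hemin. Adam10, the main sheddase of Egf and Btc, fell by 2.07 in IPC+IRI, 1.86 in IRI+Hemin and 1.94 in Hemin, with -0.05 in IRI, so that its low groups were again the 3 not scanned with Control.

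Among 21 genes of receptor turnover and feedback, 9 rose and 3 fell of 19 tested in IRI vs Control, 7 rose and 5 fell in IPC+IRI, 8 rose and 5 fell in IRI+Hemin, and 1 rose and 4 fell of 20 in Hemin. Of all genes 16.4, 22.2, 23.3 and 18.3% rose and 35, 33.7, 34.6 and 17.6% fell in the same comparisons. Spry2, a feedback inhibitor of the Ras-ERK cascade, rose by 1.02 in IRI (adjusted p in limma 5.76e-06), 0.34 in IPC+IRI and 0.58 in IRI+Hemin, and was lower than in IRI by -0.68 in IPC+IRI and -0.45 in IRI+Hemin, both called. Cblb, a ubiquitin ligase that tags active receptors, was well above background on no Control array and on all 4 arrays of IPC+IRI and of IRI+Hemin, where its rise was at least 1.12-fold and at least 1.10-fold. The adjusted p in limma, 6.46e-06 and 6.16e-06, belong to the differences of 1.93 and 1.91 from the Control readings and do not test these bounds. Cblb was not tested in IRI and Hemin against Control. Erbb2ip, which encodes the Erbb2-binding protein Erbin, rose by 0.77 in IRI, 0.66 in IPC+IRI and 0.76 in IRI+Hemin. Usp8, the deubiquitinase of sorted receptors, fell by 1.08 in IPC+IRI, 0.94 in IRI+Hemin and 0.99 in Hemin, with -0.06 in IRI.

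Of 49 adaptors and cascade genes tested, 13 rose and 7 fell in IRI vs Control (median 0.03), 10 rose and 15 fell in IPC+IRI (median -0.19), 12 rose and 16 fell in IRI+Hemin (median -0.12) and 6 rose and 12 fell in Hemin (median -0.15). The medians over all genes were -0.19, -0.11, -0.13 and 0.06, and the shares of all genes that rose and fell were those given above, 22.2 and 33.7% in IPC+IRI, near which its 10 and 15 of 49 lie. Stat3, a transcription factor that several receptors activate, rose by 1.82 in IRI, 1.84 in IPC+IRI and 2.39 in IRI+Hemin (adjusted p in limma 9.62e-07, 9.41e-07 and 6.48e-08), and the kinase gene Abl2 by 1.61, 2.02 and 1.23. Nras rose by 0.88 in IRI, 0.75 in IPC+IRI, 0.79 in IRI+Hemin and 0.33 in Hemin. Src rose by 0.89 in IRI, was not called in IPC+IRI (-0.21) or IRI+Hemin (0.22) and fell by 0.63 in Hemin. Sos1, the exchange factor of Ras, was lower than in IRI by -1.40 in IPC+IRI and -1.36 in IRI+Hemin, and Prkca, protein kinase C alpha, by -1.33 and -1.20. Both had risen in IRI vs Control, by 0.65 and 0.66, and both were below Control also in Hemin alone, by -0.84 and -0.83, so that the low groups were the 3 not scanned with Control. Over all 106 other genes of the pathway on the array, 42 rose and 14 fell of 99 tested in IRI vs Control, 35 and 25 of 101 in IPC+IRI vs Control, 37 and 26 of 102 in IRI+Hemin vs Control and 10 and 19 of 99 in Hemin vs Control, beside 16.4 and 35%, 22.2 and 33.7%, 23.3 and 34.6%, and 18.3 and 17.6% of all genes.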

How the data were processed

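Kidney RNA of 20 mice, 4 in each of 5 groups given by the labels, was labeled and hybridized in 1 color. The authors deposited scanner files of Agilent Feature Extraction 9.5.3.1 with background-corrected intensity values per spot, and a log2 matrix of which 18.1% was blank and whose single-spot values matched log2 of the scanner intensity within 0.001 in 100% of cases. The latter served only as an alternative.

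From the scanner files, outlier spots (53 to 165 per array) were left out, spots of a probe averaged, each array divided by its 75th percentile over 43379 spots, and probes of a gene name averaged before log2. A gene was tested where it was well above background on at least 3 of 4 arrays of either group, with at most 1 missing value. limma 3.58.1 in R 4.3.3 fitted 5 group means to all arrays (15 residual degrees of freedom), with Benjamini-Hochberg adjustment over all genes tested per comparison. The fit was tested on simulated data. The number of arrays limits the precision. Separate animals are named only as replicates, so p-values measure the spread between these samples.

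Alternatives were normexp background correction, no scaling, quantile normalization, another percentile, the brightest probe, the mean of log2 values, other filters, a cutoff of 2-fold, the methods' t-test, the deposited matrix, and each array left out in turn; leaving out cDNA clone probes and comparing IPC+IRI with Hemin were added after seeing the data. Replicate numbers did not pair the samples. The SAM test of the methods was not run, and slide as a random block could not be fitted. Every one of the 10 genes and the 6 other family members was named. From lists of shedding, turnover and feedback, adaptor and cascade, and ERK-responsive genes, names came from up to 4 called genes with the lowest adjusted p in IRI vs Control and up to 2 in each other comparison. The genes and lists were chosen with earlier results of these data known. Probe coordinates are mm9, from the file headers, and promoters GRCm38.p6 from RefSeq.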

Additional observations from a re-analysis of the deposited data

Results flagged for a closer look

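Among 90 sets of 4 arrays (1 gene in 1 group), 4 held an array set far apart from the other 3 by Dixon's criterion, which chance gives in about 1 of 20 sets. Areg read -5.50 on IRI+Hemin replicate 1, where the nearest array read -4.19. Nrg1 read -0.018 on IRI+Hemin replicate 1, with the nearest at -0.24, and -0.91 on IPC+IRI replicate 1, with the nearest at -0.48. Epgn read -0.55 on Control replicate 2, with the nearest at -2.46, and its call in IRI vs Control was lost without that array or IRI replicate 4.

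The difference with Hemin was another one in injured than in uninjured kidney, by the interaction in limma, for 7 of the named genes around the ErbB system, all in comparisons that cross scans. On the log2 scale it was 2.03 for Epgn (adjusted p 0.0255), -1.85 for Adam8 (adjusted p 0.0431), 1.29 for Shc2 (adjusted p 0.00782), -0.69 for Stat5a (adjusted p 0.0379), 0.86 for Crkl (adjusted p 0.000714), -0.89 for Abl2 (adjusted p 0.00184) and -1.55 for Phlda1 (adjusted p 0.00417). That of Epgn was lost without Hemin replicate 3, with normexp background correction, without scaling and with quantile normalization. Over all pathway lists 6 genes were higher and 6 lower of 102 tested, beside 5.71 and 1.95% of all genes, so that the count of higher ones is near the general share.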

How the results depend on the processing

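In IRI vs Control the calls of Hbegf, Egfr, Errfi1 and Erbb2 kept their direction and side of the threshold in all 20 or 21 alternatives that tested single genes, each array left out in turn included, but under a cutoff of 2-fold only Hbegf of these 4 passed. Normexp background correction turned Ereg in IRI vs Control to 0.17 and Areg in IRI+Hemin vs Control to -0.15, no scaling turned Egf in Hemin vs Control to 0.031, and Erbb3 in IRI+Hemin vs Control became 0.37 with the mean of log2 values and 0.47 without its clone probe. With normexp, IRI vs Control had 3 of the 10 genes higher, 1 lower and 33 of the other pathway genes called (56 in the reported setting), IPC+IRI vs Control had 2 lower, Hemin vs Control 1 lower and the interaction 2 pathway genes (12). Calls over all genes went from 9109 to 3196 in IRI vs Control, 10250 to 5852 in IPC+IRI vs Control, 10693 to 7057 in IRI+Hemin vs Control, 6665 to 3633 in Hemin vs Control, 7745 to 4756 in IPC+IRI vs IRI, 6855 to 2833 in IPC+IRI vs Hemin and 1459 to 145 in the interaction; without scaling they were 5366 in IRI vs Control, 4091 in IPC+IRI vs Hemin and 405 in the interaction. With normexp, 1708 of 17711 genes tested were called higher and 1488 lower in IRI vs Control. Called lower were 3250 of 18342 in IPC+IRI vs Control and 1713 of 18571 in Hemin vs Control. The cause of these changes in calls between settings was not tested.

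Without scaling, IRI vs Control had 34 pathway genes called; 0 of the 10 were lower in IPC+IRI, IRI+Hemin and Hemin vs Control, and 2 were higher in Hemin vs Control (Hbegf and Egfr); IPC+IRI vs IRI had 1 higher, 2 lower and 31 pathway genes (50), IRI+Hemin vs IRI 1 higher, 0 lower and 27 (46), IPC+IRI vs Hemin 1 lower and 26 (42), and the interaction 1. Over all genes without scaling, 6213 were higher and 2053 lower of 18342 in IPC+IRI vs Control, 6731 and 1973 of 18483 in IRI+Hemin vs Control and 8822 and 490 of 18571 in Hemin vs Control. They were 5908 and 603 of 17662 in IPC+IRI vs IRI, 6538 and 619 of 17830 in IRI+Hemin vs IRI and 1030 and 3061 of 18536 in IPC+IRI vs Hemin. Quantile normalization, the mean of log2 values, a filter that asks for all arrays well above background, and the methods' t-test each left 1 lower in IRI vs Control, the filter left 2 lower in IRI+Hemin vs IRI, and the brightest probe and the t-test each gave 1 higher in Hemin vs Control. The deposited matrix gave 3 higher in IRI vs Control, 2 higher in IRI+Hemin vs Control, 1 lower in Hemin vs Control, 1 higher in IPC+IRI vs IRI, 2 lower in IRI+Hemin vs IRI and 1 higher in IPC+IRI vs Hemin. Over all genes that matrix gave 1477 of 15585 higher in IRI vs Control, 3341 of 16096 higher in IRI+Hemin vs Control and 2161 of 16457 lower in Hemin vs Control. It gave 4491 of 15585 higher in IPC+IRI vs IRI, 1512 of 15610 lower in IRI+Hemin vs IRI and 1355 of 16298 higher in IPC+IRI vs Hemin. Of the 10 genes, the group with the highest mean was kept by 6 with normexp, 4 without scaling and 6 in the deposited matrix.

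A cutoff of 2-fold, which left 972 to 4258 calls over all genes per comparison, left 2 higher and 0 lower with 25 pathway genes in IRI vs Control, 1 higher and 1 lower with 28 in IPC+IRI vs Control, 2 higher and 0 lower with 27 in IRI+Hemin vs Control, 0 lower with 4 in Hemin vs Control, 2 lower with 16 in IPC+IRI vs IRI, 0 lower with 20 in IRI+Hemin vs IRI, 0 lower with 20 in IPC+IRI vs Hemin, and 6 in the interaction. Over all genes that cutoff left 3657, 4082, 4258, 1520, 2040, 2221, 2009 and 972 calls in the same order of comparisons. When single arrays were dropped, 4 to 5 of the 10 were higher in IRI vs Control and 2 to 3 lower in Hemin vs Control. With the replicate number as a block, 1 call changed (Egfr in IPC+IRI vs Hemin, 0.36, adjusted p 0.0583); same-numbered arrays did not deviate together in every pair. The array signal limits Areg, Ereg and Tgfa, the genes nearest to background.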

Other observations

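Across the 20 arrays, the genes whose levels ran most like those of Hbegf were Trib1 (Pearson r 0.97), Sertad1 (0.97) and Atf3 (0.96), among genes well above background on every array. For Errfi1 they were Slc25a25 (0.94), Ccrn4l (0.93) and Dusp8 (0.92), for Egfr Trim16, Icam1 and Relb (0.90 each), and for Erbb2 Six5 (0.96), 4930444A02Rik (0.95) and Pex26 (0.95). Egf ran most like the gene names EG668831 (0.97), ENSMUST00000038002 (0.96) and 4930420K17Rik (0.95), and Tgfa like BC024479, Ppp1r8 and Zfp646 (0.91 each). For Btc the 3 were Rhbdd1 (0.88), Pex3 (0.87) and Tbrg4 (0.86), for Ereg Ccr9 (0.85), Crhr2 (0.85) and Lhb (0.82), and for Erbb3 Zhx3 (0.83), Rc3h1 (0.82) and Tmem140 (0.78). The arrays share groups, slides and scans, so these values describe patterns over the 5 groups.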
